A study of Sus scrofa with 8 samples.

Results

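CD3D, CD4, LCK and SH2D1A encode proteins of the T cell receptor pathway, and their transcripts were measured in the blood of pregnant and non-pregnant sows (Sus scrofa). They are 4 of 2389 genes named on the array, and 7 of its 43603 probes belong to them, matched by RefSeq transcript to the pig symbol. CD3D, CD4 and LCK had 2 probes each and SH2D1A had 1. The 4 genes were chosen by their p-values in this same contrast. Their differences between the groups are therefore a description and carry no test.

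T cells recognise antigen through a receptor whose signal passes through the CD3 chains and the zeta chain CD247. CD4 is the co-receptor of helper T cells, binds MHC class II and brings the kinase LCK to the receptor, where LCK phosphorylates the CD3 and zeta chains. SH2D1A, also called SAP, is a small adaptor of T and NK cells that couples receptors of the SLAM family to the kinase FYN. In pigs, unlike in humans, many circulating T cells carry CD4 and CD8 together or carry the gamma-delta receptor, so CD4 marks only part of the T cell pool.

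The study compared 4 pregnant sows with 4 non-pregnant sows, all bled from the submandibular vein 14 days after insemination and all of the fifth parity, with 1 single-colour Agilent porcine array for each sow. The age and breed of the sows are not given in the sources used here. The design text speaks of 3 half-sib pairs and 1 unrelated pair, without saying which arrays form a pair. The arrays lay on 2 slides, with replicates 1 and 3 of both groups on slide 1 and replicates 2 and 4 on slide 2.

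Levels are given as log2 of the processed spot signal relative to the array's 75th percentile, so that 0 is that percentile. Levels of different probes are not comparable with each other. In whole blood, fewer T cells and less RNA for each T cell cannot be told apart. The 75th percentile signal was lowest on pregnant replicate 2 (143) and non-pregnant replicate 4 (176), against 215 to 298 on the other arrays. Pregnant replicate 2 also stood apart over all probes: the lowest correlation between any pair of arrays was 0.870, and 0.946 without it. Values of the 4 genes are given with and without it, and those of other genes at their brightest probe where leaving it out moves them by over 1.5 times. Each sow had 1 array, so the spread between sows and that between arrays cannot be told apart.

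CD3D, the delta chain of the CD3 complex, had the largest difference among the 6 probes of these genes that were well above background on all arrays. At CD3D probe 1 (A_72_P504254) the 4 pregnant sows had levels of 0.50, -0.39, 0.30 and 0.46, against 0.83, 0.63, 0.69 and 1.11 in the 4 non-pregnant sows. Every pregnant value lay below every non-pregnant value, with a gap of 0.13 between the groups. The means were 0.22 ± 0.42 in pregnant and 0.82 ± 0.22 in non-pregnant sows (SD, n = 4 each), so that the signal in pregnant sows was 0.660 times that in non-pregnant sows (log2 difference -0.60, SE 0.27). Pregnant replicate 2 was the lowest of all arrays, and without it the difference was -0.40.

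The other CD3D probe showed less. At CD3D probe 2 (A_72_P185936) the levels were 0.068, -0.59, 0.15 and 0.24 in pregnant sows, against 0.28, 0.60, 0.22 and -0.34 in non-pregnant sows. The groups overlapped: only pregnant replicate 2 lay below all non-pregnant values, and non-pregnant replicate 4, the highest array at probe 1, was the second lowest here. The means were -0.032 ± 0.38 in pregnant and 0.19 ± 0.39 in non-pregnant sows (SD, n = 4 each; log2 difference -0.22, SE 0.29). Without pregnant replicate 2 the difference was -0.037.

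CD4 was measured by 1 usable probe. At CD4 probe 1 (A_72_P077421) the levels were -1.24, -2.43, -1.60 and -1.37 in pregnant sows, against -1.32, -1.19, -1.47 and -0.93 in non-pregnant sows. The groups overlapped, and pregnant replicate 2 lay well below every other array. The means were -1.66 ± 0.53 in pregnant and -1.23 ± 0.23 in non-pregnant sows (SD, n = 4 each), a ratio of 0.742 (log2 difference -0.43, SE 0.31). The difference was -0.17 without pregnant replicate 2. On slide 1, which does not hold that array, it was -0.019, and on slide 2 it was -0.84.

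CD4 probe 2 (A_72_P306178) was close to the background and did not pass the filter on dim probes. It was well above background on 0 of 4 pregnant arrays and on 2 of 4 non-pregnant arrays. The levels were -4.54, -5.14, -5.17 and -4.84 in pregnant sows, against -4.18, -5.09, -4.78 and -2.42 in non-pregnant sows. Only non-pregnant replicate 4 stood clear of the others. With the lowest signal well above background taken as a floor in the pregnant sows, the level in pregnant sows was at least 1.27-fold lower, with means of -4.92 in pregnant and -4.11 in non-pregnant sows. That bound rested on non-pregnant replicate 4: without it the non-pregnant mean was -4.68, under the mean of -4.45 that the floor gives in pregnant sows, and no bound can be given. The scanner software put the error of these spots at 12.2% to 62.2% of the signal, above that of every spot of the other 6 probes.

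LCK, the Src-family kinase that starts receptor signalling, had a narrow spread between sows at its brighter probe. At LCK probe 1 (A_72_P290209) the levels were 3.13, 2.72, 2.90 and 2.68 in pregnant sows, against 3.36, 3.32, 3.03 and 3.42 in non-pregnant sows. Of the 4 pregnant values, 3 lay below all non-pregnant values, and pregnant replicate 1 lay above non-pregnant replicate 3. The means were 2.86 ± 0.21 in pregnant and 3.28 ± 0.17 in non-pregnant sows (SD, n = 4 each), a ratio of 0.745 (log2 difference -0.43, SE 0.23). Pregnant replicate 2 counted for little here, since the difference without it was -0.38.

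LCK probe 2 (A_72_P155131) gave nearly equal means. Its levels were 0.30, -0.14, 0.40 and 0.38 in pregnant sows, against 0.24, 0.88, 0.44 and -0.34 in non-pregnant sows. The pregnant values lay wholly inside the non-pregnant range, with means of 0.24 ± 0.25 in pregnant and 0.30 ± 0.51 in non-pregnant sows (SD, n = 4 each; log2 difference -0.069, SE 0.30). The sign turned when a single array was left out: leaving out pregnant replicate 2 gave 0.055, and leaving out non-pregnant replicate 2 gave 0.12.

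SH2D1A separated the groups on its only probe. At SH2D1A probe 1 (A_72_P303199) the levels were 0.036, -0.16, -0.087 and -0.35 in pregnant sows, against 0.51, 0.16, 0.11 and 0.51 in non-pregnant sows. All pregnant values lay below all non-pregnant values, with a gap of 0.074 that is smaller than the SD of either group. The means were -0.14 ± 0.16 in pregnant and 0.32 ± 0.22 in non-pregnant sows (SD, n = 4 each), a ratio of 0.727 (log2 difference -0.46, SE 0.23). The difference was -0.45 without pregnant replicate 2, so SH2D1A rested least on that array among the 7 probes.

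**Figure D1:**
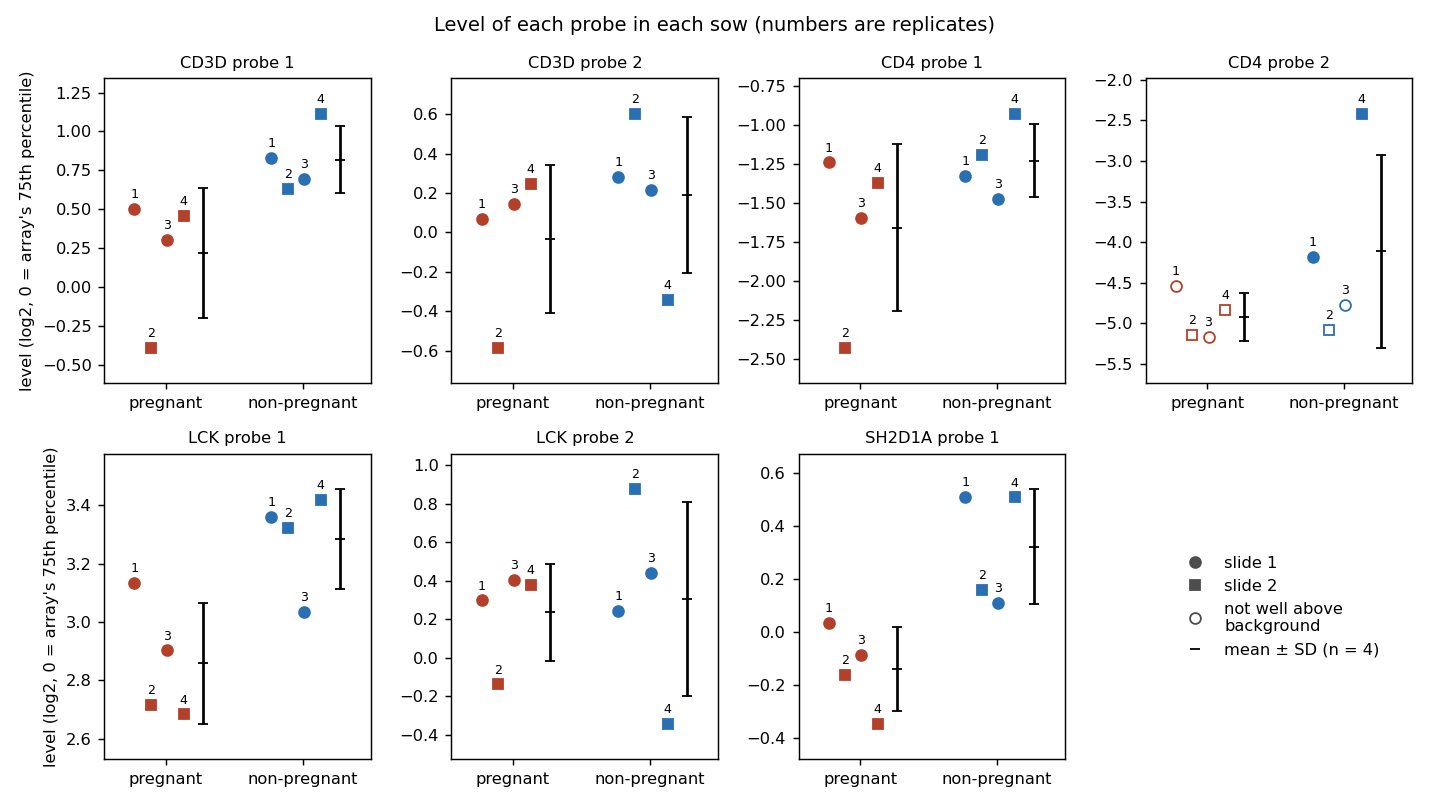
Level of each of the 7 probes (log2 relative to the array's 75th percentile, own axis in each panel) in the pregnant and the non-pregnant sows, with the replicate number beside each point, the slide as the symbol and the mean ± SD (n = 4) at the right of each group. The groups do not overlap at CD3D probe 1 and SH2D1A probe 1, and overlap at the other 5 probes. Open symbols mark CD4 probe 2 where it was not well above background.

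All 7 probes had a lower mean in pregnant sows, where 56.7% of the 26476 probes kept did. Groups were fully apart, with pregnant lower, at 2 of the 6 probes that passed the filter, against 0.687% of all probes kept, with 0.895% apart in the other direction. These counts restate the choice of the genes and are no evidence of their own. Across all probes limma called 0 higher (0.0%) and 0 lower (0.0%) at an adjusted p under 0.05. The smallest adjusted p was 0.533, and 604 probes had an unadjusted p under 0.05. The median difference over all probes was -0.044, so the differences above are nearly the same relative to it (-0.55 for CD3D probe 1 and -0.025 for LCK probe 2 at the ends of the range of the kept probes).

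The difference was larger on slide 2 than on slide 1 at each of the 7 probes. At SH2D1A it was -0.34 on slide 1 and -0.59 on slide 2. At CD3D probe 1 it was -0.36 and -0.84, and at LCK probe 1 -0.18 and -0.67. Slide 2 holds both arrays of lowest signal, 1 in each group, and the difference between slides was not tested. With both of these arrays left out, the differences were -0.30 for CD3D probe 1, -0.21 for CD3D probe 2, -0.072 for CD4 probe 1, -0.33 for LCK probe 1, -0.16 for LCK probe 2 and -0.39 for SH2D1A, so that probes of 1 gene came closer to each other.

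**Figure D2:**
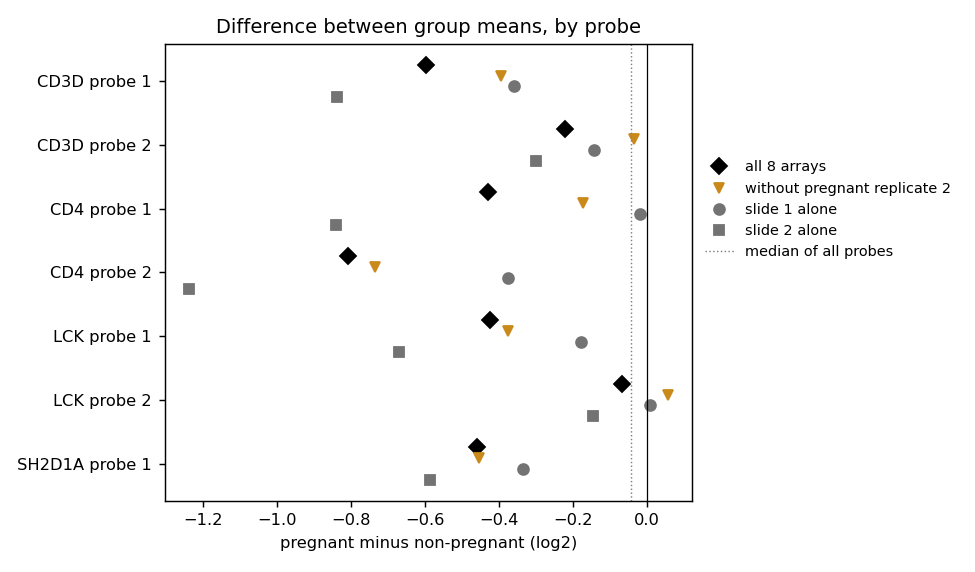
Difference between the group means (pregnant minus non-pregnant, log2) at each of the 7 probes over all 8 arrays, without pregnant replicate 2, and within each slide. The dotted line is the median of all probes (-0.044). SH2D1A and LCK probe 1 move little without pregnant replicate 2, CD4 probe 1 moves to -0.17, and the slide 2 value lies left of the slide 1 value at every probe.

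The spread between sows of the same group differed among the probes. It entered the p-values that chose the genes, so a small spread at their brighter probes is a description. LCK probe 1 and SH2D1A had pooled within-group SDs of 0.19 each, and only 2.02% and 2.05% of the probes kept had a smaller one. The median over all kept probes was 0.45. CD3D probe 1 (0.33), CD3D probe 2 (0.39), LCK probe 2 (0.40) and CD4 probe 1 (0.41) lay closer to that median. The SD of CD3D probe 1 in pregnant sows was 0.42, and 0.10 without pregnant replicate 2.

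The CD3D probes and the LCK probes followed each other weakly from sow to sow. Over the 8 arrays, CD3D probes 1 and 2 correlated at r = 0.409 and LCK probes 1 and 2 at r = 0.012. Over the 941 genes with at least 2 kept probes, the median r between the 2 brightest was 0.858, and 22.0% of those genes lay below CD3D and 12.8% below LCK. The CD4 probes, of which probe 2 was near background, correlated at r = 0.590, and at 0.796 without pregnant replicate 2. Probe 2 of CD3D and probe 2 of LCK instead tracked each other closely, with r = 0.912 over all arrays, 0.933 for deviations from the group means and 0.852 without pregnant replicate 2 and non-pregnant replicate 4. These correlations are descriptions over arrays that share their scaling.

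The arrays of lowest signal stood out at these probes, although r between the CD3D probes was 0.381 with both of them left out. Pregnant replicate 2 and non-pregnant replicate 4 were the lowest arrays at both CD3D probe 2 (-0.59 and -0.34) and LCK probe 2 (-0.14 and -0.34). At CD3D probe 1 and LCK probe 1 non-pregnant replicate 4 was instead the highest of all arrays, at 1.11 and 3.42, and it was also the highest at both CD4 probes. Across the 8 arrays the level correlated with log2 of the array's 75th percentile at r = 0.777 (rho = 0.50) for CD3D probe 2 and r = 0.687 (rho = 0.524) for LCK probe 2. This relation was looked for after the values were seen and did not pass adjustment over the 7 probes (exact permutation test, two-sided, p = 0.0261, adjusted p = 0.183 for r and 0.757 for rho of CD3D probe 2). For CD3D probe 1 and SH2D1A, r was 0.387 and 0.023 (adjusted p = 0.586 and 0.959, exact permutation test). Without the 2 arrays farthest from the median signal, pregnant replicates 2 and 1, r was 0.937 for CD3D probe 2, 0.908 for LCK probe 2 and -0.712 for CD3D probe 1. That set still held non-pregnant replicate 4, the array of lowest signal left, so these values may rest on it. Over all probes kept, the median r with the 75th percentile on the 8 arrays was 0.185. The part of array signal in the disagreement of the probes was not tested further.

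**Figure D3:**
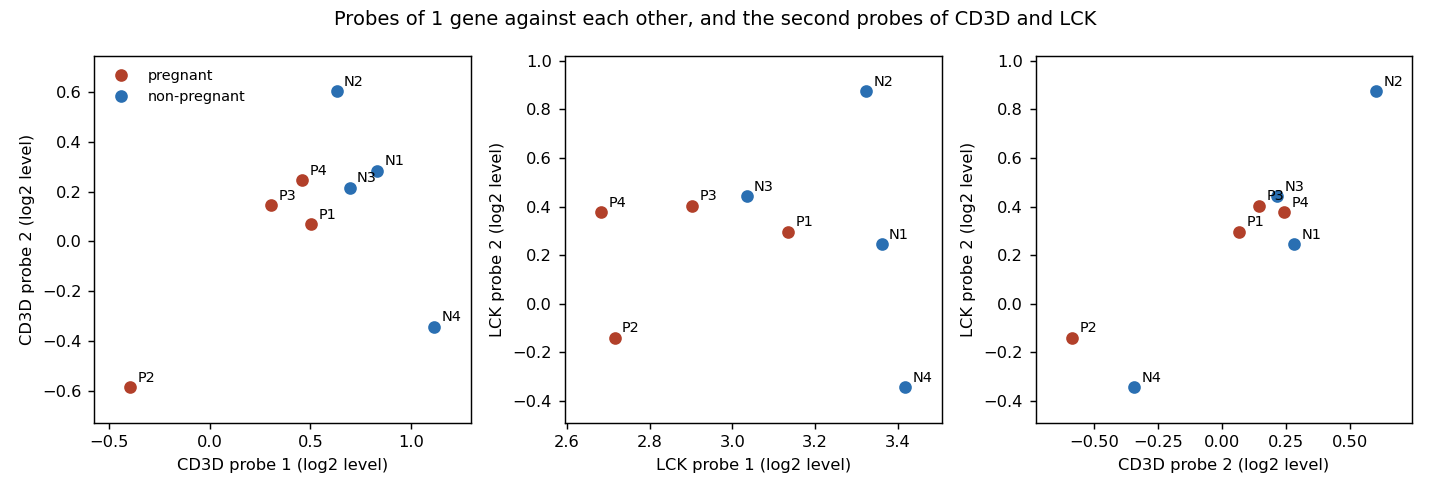
Levels (log2) of CD3D probe 2 against CD3D probe 1, LCK probe 2 against LCK probe 1, and LCK probe 2 against CD3D probe 2 in the 8 sows (P, pregnant; N, non-pregnant; the number is the replicate). Probes of 1 gene scatter (r = 0.409 and 0.012), with N4 high on probe 1 and low on probe 2, while the probes numbered 2 of both genes lie along a line (r = 0.912).

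Between genes, the relation was tested on deviations from the group means, which leave out the difference between the groups, although the size of these deviations entered the p-values that chose the genes. At the brightest probe of each gene, 2 of 6 pairs passed an exact permutation test of Pearson's r within groups after Benjamini-Hochberg adjustment over the 6 pairs. CD3D and CD4 deviated together (r = 0.948, adjusted p = 0.0417; rho = 0.905, adjusted p = 0.0573, exact permutation test, two-sided, n = 8). LCK and SH2D1A did so as well (r = 0.809, adjusted p = 0.0417; rho = 0.881, adjusted p = 0.0417, exact permutation test, two-sided, n = 8). The other 4 pairs had r between 0.249 for CD4 and SH2D1A and 0.582 for CD4 and LCK (adjusted p of 0.378 to 0.523 by the exact permutation test, and 0.229 to 0.420 for rho). The share of all gene pairs that would pass was not counted, so the 2 pairs are not shown to be particular. With all 1816 other genes the median within-group r was 0.208 to 0.274. Some of those genes lay closer, such as RNF19A to CD3D (0.981) and BIN1 to LCK (0.911).

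Each of these relations had a limit. That of CD3D and CD4 rested on pregnant replicate 2 and non-pregnant replicate 4, the 2 arrays farthest from the median of CD3D: without them r was 0.429 (p = 0.444, exact permutation test). That of LCK and SH2D1A was 0.662 (p = 0.167, exact permutation test) without pregnant replicate 1 and non-pregnant replicate 3, and with quantile normalization in place of scaling it was 0.491 (adjusted p = 0.349, exact permutation test). With scaling on the array median it was 0.943 (adjusted p = 0.0104, exact permutation test), so it depended on how the arrays were put on 1 scale. Each slide holds 4 arrays, too few for a correlation within a slide.

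**Figure D4:**
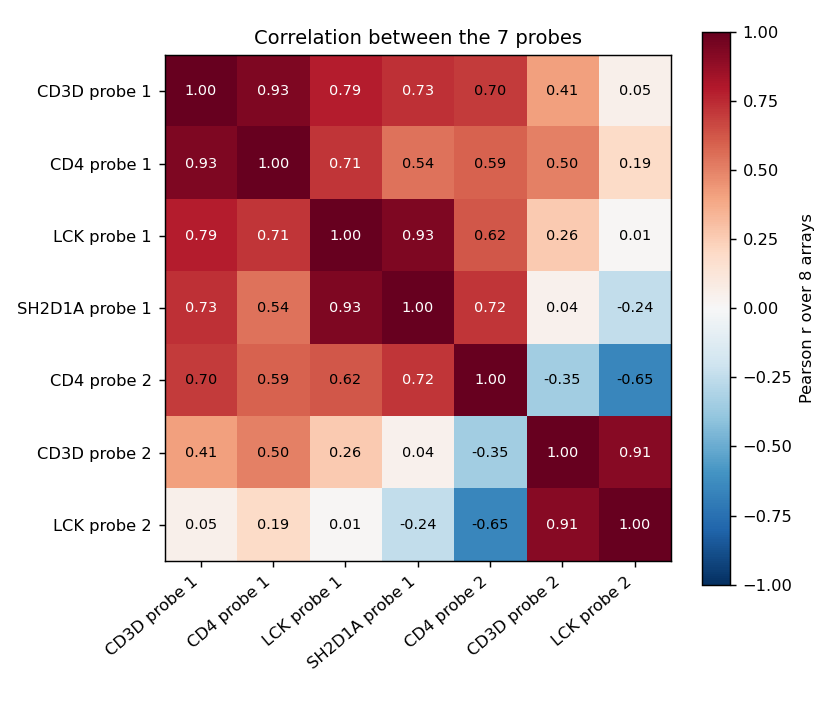
Pearson correlation over the 8 arrays between all pairs of the 7 probes, with the group difference left in. CD3D probe 1 and CD4 probe 1 (0.93) and LCK probe 1 and SH2D1A (0.93) are the closest pairs among the brighter probes, and CD3D probe 2 with LCK probe 2 (0.91) form a pair apart from them.

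Ratios within an array do not depend on scaling. The log2 ratio of SH2D1A to LCK probe 1, taken relative to its mean over all arrays, was -0.018 ± 0.093 in pregnant and 0.018 ± 0.14 in non-pregnant sows (SD, n = 4 each). Its SD in pregnant sows was the smallest of the 7 ratios formed. In non-pregnant sows the ratio of SH2D1A to CD3D had a smaller one (0.13). The spread of these probes entered the p-values that chose the genes, so a narrow ratio is a description. The ratio of CD4 to CD8A, a chain of the CD8 co-receptor for MHC class I, was 0.067 ± 0.56 in pregnant and -0.067 ± 0.25 in non-pregnant sows, with the groups overlapping and pregnant replicate 2 the lowest at -0.71. The ratio of CD4 to CD3D was 0.085 ± 0.12 in pregnant and -0.085 ± 0.16 in non-pregnant sows. None of these mean ratios lay further apart than the sum of the SDs of its groups, and they were not tested.

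Among 1816 other genes at their brightest probe, those with a pattern over the 8 arrays most like CD3D were RNF19A (r = 0.977), LATS2 (0.958), KAT7 (0.952), PTGES3 (0.945) and CD4 (0.934). For CD4 they were LATS2 (0.963), GNPAT (0.963), GDF9 (0.960), LMO4 (0.954) and GALNS (0.950). LATS2, a kinase of the Hippo pathway, appeared for both. The genes most like LCK were BIN1 (0.966), SLC25A27 (0.953), UCHL1 (0.941), PLPP2 (0.932) and SH2D1A (0.931). For SH2D1A they were PLPP2 (0.954), LCK (0.931), CD8A (0.916), ASPA (0.915) and ITGB1 (0.911). CD3D and CD4 thus named each other or shared a neighbour, as did LCK and SH2D1A, and no gene was listed for both pairs. The difference between the groups was left in, and it chose CD3D, CD4, LCK and SH2D1A, so genes with a similar difference rank higher. Within groups, r was 0.809 for LCK and SH2D1A, 0.725 for SH2D1A and CD8A, and 0.948 for CD3D and CD4. These are the highest of many correlations over 8 arrays and carry no test.

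The pathway around the 4 genes was read from lists of receptor chains and co-receptors, receptor-proximal kinases, adaptors and SLAM family receptors. Of 57 other genes on these lists, 13 had a probe with a symbol that passed the filter, none of them from the SLAM list (0 of 9). Of these 13, limma called 0 at an adjusted p under 0.05 (0.0% of the 1817 genes were called in either direction), each with an adjusted p of 1.0, and 1 had an unadjusted p under 0.05, CD8A. A lower mean in pregnant sows was found in 12 of the 13, with a median log2 difference of -0.15, against 55.9% of all genes and a median of -0.036.

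The count of 12 depended on slide 2. It was 6 of 13 on slide 1 alone (median 0.023), 12 of 13 on slide 2 alone (median -0.37), and 8 of 13 without pregnant replicate 2 (median -0.018). On slide 1 the members themselves were lower at 6 of 7 probes, with CD4 probe 1 at only -0.019. Those arrays are part of the contrast that chose the members, so this count is no evidence of its own.

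At their brightest probes the other CD3 chains and the zeta chain had smaller differences than CD3D probe 1. CD3E differed by -0.23, with SDs of 0.063 in pregnant and 0.24 in non-pregnant sows (n = 4 each). CD3G was 3.68 ± 0.27 in pregnant and 3.97 ± 0.28 in non-pregnant sows (-0.28), and CD247 was 4.00 ± 0.33 in pregnant and 4.15 ± 0.060 in non-pregnant sows (-0.15; SD, n = 4 each). The difference of CD247, the zeta chain that carries most of the signalling motifs, was 0.016 without pregnant replicate 2. CD3G probe 2 gave -0.88 where probe 1 gave -0.28, so the probes of that chain also disagreed in size.

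Co-receptors and costimulatory receptors held the other genes whose groups were apart. CD8A was 2.46 ± 0.23 in pregnant and 3.02 ± 0.084 in non-pregnant sows (difference -0.56, and -0.64 at its other probe; SD, n = 4 each). CTLA4, which restrains T cell activation, was -2.58 ± 0.19 in pregnant and -2.08 ± 0.21 in non-pregnant sows (-0.50). In both genes all pregnant values lay below all non-pregnant values, as at 0.771% of all genes. At CTLA4 the groups nearly touched, at -2.336 in pregnant replicate 4 and -2.329 in non-pregnant replicate 1. Both genes kept a similar difference on slide 1 (-0.47 and -0.42). ICOS, a costimulatory receptor, differed by -0.45, and by -0.27 without pregnant replicate 2. The adhesion receptor CD2 differed by -0.15, and by 0.078 without that array. CD40LG, the ligand through which helper T cells activate B cells, differed by 0.17, and by 0.42 without it. CD40LG was the only one of the 13 with a higher mean in pregnant sows.

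Other kinases and adaptors had values that turned or shrank when pregnant replicate 2 was left out. FYN, the kinase that SH2D1A recruits, differed by -0.10, and by 0.14 without pregnant replicate 2. Among adaptors, GRB2 differed by -0.026, NCK2 by -0.15 and DOK2 by -0.13, and without that array GRB2 differed by 0.12, NCK2 by -0.062 and DOK2 by -0.018. NCK1 differed by -0.38 through pregnant replicate 2 (-4.09, against -2.68 to -2.52 in the other pregnant sows), and by -0.0062 without it.

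**Figure D5:**
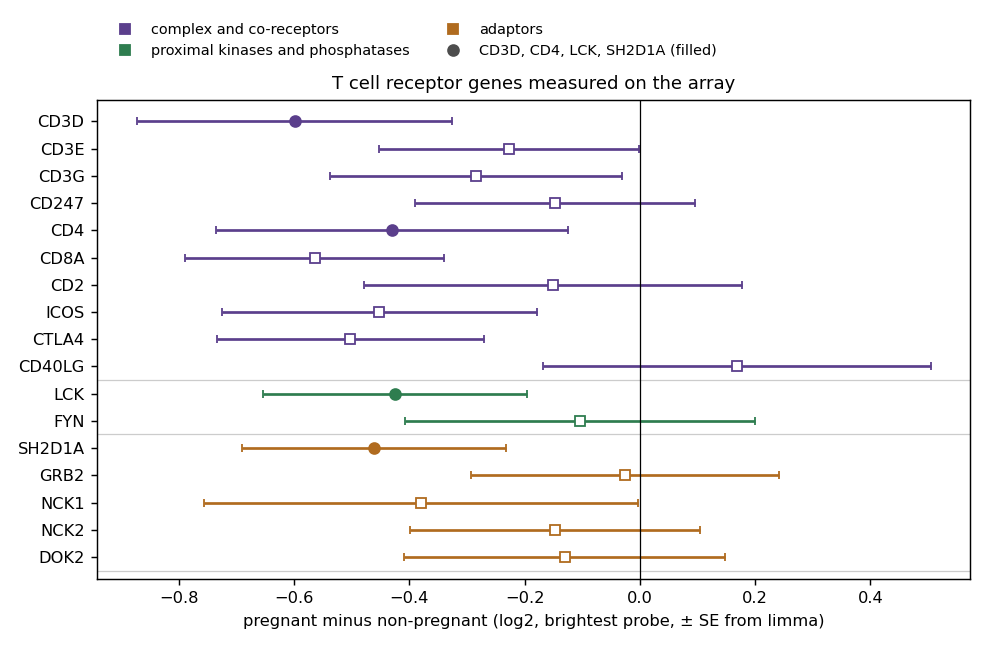
Difference between group means (pregnant minus non-pregnant, log2, at the brightest probe) with the SE from limma for the 17 measured genes of the receptor complex, kinase and adaptor lists. Filled circles are CD3D, CD4, LCK and SH2D1A, chosen for their difference, and open squares are the other 13 genes, 12 of which lie left of 0.

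Downstream genes, target genes and transcription factors were read in the same way. Of 21 measured downstream signalling genes, 14 had a lower mean in pregnant sows (median -0.076), and 8 of 21 without pregnant replicate 2 (median 0.031). The 3 brightest were NFKBIA, the inhibitor of NF-kappaB (-0.11), the AP-1 subunit JUN (-0.094) and the small GTPase CDC42 (-0.11), which were 0.00048, 0.067 and -0.074 without that array. Of 8 measured cytokine and receptor targets, 6 had a lower mean (median -0.067). TNF differed by -0.00084, the interleukin-7 receptor IL7R by -0.19 and the activation marker CD69 by -0.60, with SDs for CD69 of 1.22 in pregnant and 0.25 in non-pregnant sows. Without pregnant replicate 2, TNF differed by -0.14, IL7R by -0.048 and CD69 by -0.28. Of 5 T cell transcription factors, 4 had a lower mean (median -0.26): KLF2 differed by -0.26, ETS1 by -0.27 and GATA3 by -0.41. Without pregnant replicate 2, ETS1 differed by -0.18 and GATA3 by -0.21. With non-pregnant replicate 4 left out as well, KLF2 differed by -0.0021, ETS1 by -0.13 and GATA3 by -0.0040 (list median -0.0040). Limma called 0 of these 34 genes, and 0 had an unadjusted p under 0.05.

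Sow by sow within the groups, CD3D and CD4 followed the pathway more than LCK and SH2D1A did. The median within-group r with the other measured genes of the receptor complex list was 0.541 for CD3D and 0.597 for CD4, against 0.401 for LCK and 0.112 for SH2D1A. With the adaptor list it was 0.799, 0.759, 0.478 and 0.285 in the same order of genes. Over all genes the medians were 0.274 for CD3D, 0.250 for CD4, 0.258 for LCK and 0.208 for SH2D1A. These medians are descriptions over 8 arrays that share pregnant replicate 2.

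Markers of other blood cells had unequal means in the groups, and limma called 0 of them. Of 12 measured monocyte and macrophage markers, 1 had a lower mean in pregnant sows and 11 a higher one (median 0.27), with a summed level, relative to the 75th percentile, of 108 to 126 in pregnant and 70.7 to 113 in non-pregnant sows. The lower ones numbered 1 of 12 on slide 1 (median 0.47), 5 of 12 on slide 2 (median 0.14) and 3 of 12 without pregnant replicate 2. LYZ, FCN1 and AIF1, the 3 brightest, differed by 0.64, 0.40 and 0.22, and without that array by 0.73, 0.61 and 0.35. FCN1 was at 1.41 on slide 1 and -0.61 on slide 2. All 3 measured B cell markers had a lower mean, with CD79A at -0.34 and CD40 at -0.17 and sums of 12.7 to 16.8 in pregnant and 11.9 to 24.3 in non-pregnant sows. Of 9 NK and cytotoxic markers, 7 had a lower mean (median -0.30), and the sums overlapped at 241 to 334 in pregnant and 209 to 368 in non-pregnant sows. CCL5 differed by -0.57, FCGR3A by 0.097 (0.032 without pregnant replicate 2) and TYROBP by 0.22.

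Among neutrophil, erythroid and platelet markers, several values rested on pregnant replicate 2. The 7 neutrophil markers (2 lower) summed to 142 to 302 in pregnant and 139 to 503 in non-pregnant sows, with MMP9 at -1.09 and ARG1 at 0.65 (0.030 without that array). The 3 measured erythroid markers, HBE1 at -0.22 and KLF1 at -0.23 among them (-0.99 and -0.68 without it), summed to 9.20 to 132 in pregnant and 20.1 to 60.0 in non-pregnant sows. Their sum was highest on pregnant replicate 2, where CD3D and CD4 were lowest. The median within-group r of these 3 markers was -0.679 with CD3D, -0.632 with CD4, -0.415 with LCK and -0.272 with SH2D1A. The 7 platelet markers (6 lower) summed to 1352 to 3059 in pregnant and 1617 to 2286 in non-pregnant sows, with ITGB3 at 0.028, ITGA2B at -0.32 and SELP at -0.53. Without pregnant replicate 2, ITGB3 was at -0.20 and ITGA2B at -0.59. The erythroid and platelet sums follow mostly their brightest probe. Sums of the other blood cell lists also weigh their brightest probes most. The highest neutrophil sum, for example, came from non-pregnant replicate 4, where MMP9 was at 8.90. None of the sums is a measure of cell numbers. On pregnant replicate 2 the level of HBE1 was 7.04 and that of KLF1 -0.86, and those of ITGB3 and ITGA2B were 11.6 and 5.03. Measured markers of each blood cell list were above background because the filter required it, which is no evidence of the cells present. Limma called 0 of the 88 list genes outside the 4 (1 at an unadjusted p under 0.05). The part of these other cells in the values of CD3D, CD4, LCK and SH2D1A was not tested.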

How the data were processed

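Each sow has 1 scanner file from Agilent's Feature Extraction software, whose version is 10.7.3.1 in the headers and 10.7 in the submitters' processing notes. The value used from it is an intensity for each spot, spatially detrended per the file headers and deposited without scaling between arrays. A further table holds log2 values that the authors deposited without naming their normalization. Every column of it followed its own array (lowest r 0.999) and all had the same quartiles (2.19, 5.03 and 7.76), as quantile normalization gives. The direction is known and the method is not named. That table was used as an alternative.

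Removing control spots and outlier spots dropped 215 of 43603 probes. Signals were taken as log2 minus the array's 75th percentile. A probe had to be well above background on every array of either group, and the 26476 that were went into the test with limma 3.58.1 (lmFit and eBayes, two-sided, Benjamini-Hochberg over all probes, threshold 0.05) in R 4.3.3. Symbols came from RefSeq accessions through a table of Sscrofa11.1: 5461 of 5767 probes with such an accession matched, to 2389 symbols, of which 1817 were kept. A gene is read at its brightest kept probe. Correlations used exact permutation of arrays within groups (numpy 2.4.6, scipy 1.17.1, Python 3.11.15), and plots used matplotlib 3.10.9. Limma and the permutation test were tested on simulated data.

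The 4 genes, the lists and the tests were chosen with earlier results of these data known. Named are every probe of the 4 genes, every measured gene of the receptor, kinase and adaptor lists, the 3 brightest genes of each other list, and the 5 genes most like each member, except a few genes that are not reported here. Saturated spots numbered 0, and 61.7% to 69.2% of probes were well above background. The number of arrays limits the precision. No probe, promoter or protein sequence was used here.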

Additional observations from a re-analysis of the deposited data

Results flagged for a closer look

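An array lay far from the other 3 of its group in 5 of 88 groups examined (each named gene or probe in both groups), where chance marks about 1 in 20. None of them was a probe of CD3D, CD4, LCK or SH2D1A. NCK1 was -4.09 and GATA3 3.17 in pregnant replicate 2, against -2.68 to -2.52 and 3.93 to 4.03 in the other pregnant sows. In pregnant replicate 1, CD79A was 1.05 (0.59 to 0.65 in the others) and CD40 was 3.82 (3.42 to 3.48). For SELP, non-pregnant replicate 1 was at 4.01 and the rest of its group at 3.03 to 3.15. The causes were not tested.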

How the results depend on the processing

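Limma called 0 probes under each alternative run: quantile normalization, scaling on the median, normexp on the spot median, no filter, probes well above background on all 8 arrays, slide as a block, the replicate block, each slide alone, array weights (whose estimation stopped before convergence), the deposited table, and each array left out (393 to 2197 probes at an unadjusted p under 0.05). All 7 probes were lower in pregnant sows in every setting that gives all 7 except 3, where LCK probe 2 turned to 0.0079 (slide 1 alone), 0.055 (pregnant replicate 2 left out) and 0.12 (non-pregnant replicate 2 left out). Its range over single arrays left out was -0.29 to 0.12. LCK probe 1 moved to -0.18 and -0.67 on slides 1 and 2, and SH2D1A to -0.19 with normexp. The normexp run also gave -0.31 for CD3D probe 1, -0.32 for LCK probe 1, -0.11 for CD4 probe 1 and -0.074 for CD4 probe 2. It added an offset of 50 to every spot and was followed by quantile normalization. An added offset shrinks log2 differences by arithmetic, most at dim probes. Its part in these values was not tested. Within groups, CD3D and CD4 (and LCK and SH2D1A) had r = 0.906 (0.491) with quantile normalization, 0.947 (0.580) with normexp and 0.903 (0.505) with the deposited table, none of which passed adjustment, while scaling on the median gave 0.970 (0.943), both passing. With an array left out the ranges were 0.778 to 0.997 and 0.724 to 0.930 (adjusted p of 0.0417 to 0.271 and 0.0417 to 0.188, exact permutation test), passing only without non-pregnant replicate 2; 7 arrays allow fewer permutations. Without pregnant replicate 2 and non-pregnant replicate 4, chosen after seeing the data, they were 0.429 and 0.823 (adjusted p = 0.667 and 0.50, exact permutation test). Deviations of same-numbered sows over all probes correlated at r = 0.218, 0.481, 0.434 and -0.118 for replicates 1 to 4. The labels do not tie the numbers to the half-sib pairs, and these values cannot decide it. A pairing by number was neither assumed in the main test nor excluded. Pregnant replicates 2 and 3 correlated best with their own number, 1 and 4 with each other's. The replicate block left 0 calls and the same differences, with 794 in place of 604 probes at an unadjusted p under 0.05.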
